A study of Homo sapiens with 14 samples.

Results

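Small nucleolar RNA (snoRNA) genes and small Cajal body RNA genes were followed through their transcription start site (TSS) windows. A window was taken where its gene symbol began with SNORD or SNORA and a digit, or with SCARNA, which gave 568 of the 28159 windows counted. They comprised 14 windows of SNORD3, SNORD13 and SNORD118, the own-promoter class, and 343 other SNORD, 182 SNORA and 29 SCARNA windows. The class of 14 was set by symbol and includes 7 further SNORD3 copies (SNORD3E to SNORD3K), for which a promoter of their own was not shown. Occupancy by RNA polymerase II phosphorylated at Ser5, a form enriched at promoters and in early transcription, was read by ChIP-seq (sequencing of immunoprecipitated chromatin). The cells came from wild-type HCT116, a human colorectal carcinoma line with intact p53. Every culture was electroporated. Those with peptide were given the bivalent stapled compound at 10 µM, with 200 nM of it also in the medium afterwards. Treatment then lasted 3 h with 10 µM Nutlin3a, which stabilises p53 by blocking MDM2, or with its vehicle (0.1% DMSO), and the series asks whether the peptide blocks the p53 response through Mediator. The 6 ChIP libraries were DMSO replicates 1 and 2, Nutlin3a replicates 1 and 2, and, for peptide under either treatment, replicate 2 alone. Each of the 4 conditions also had 2 inputs, sheared chromatin without immunoprecipitation.

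Box C/D snoRNAs (SNORD) guide 2′-O-methylation of other RNAs and box H/ACA snoRNAs (SNORA) guide pseudouridylation, while SCARNA genes encode related guides for spliceosomal RNAs. Most human members lie in introns of host genes, often ribosomal protein genes or noncoding SNHG genes, and are released from the spliced intron, so that the polymerase reaching them started at the host promoter. SNORD3 (U3), SNORD13 (U13) and SNORD118 (U8) act in ribosomal RNA processing and modification and are instead transcribed from promoters of the snRNA type.

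Hosts were found for 480 members in 251 genes, 68 of which held several members. A host start of the 5′ terminal oligopyrimidine type is typical of ribosomal protein genes. The RefSeq promoter table (GRCh38.p14), which held 210 of the hosts, was searched at the first 5 bases of the gene for a C followed by C or T only, a pattern chosen after values were seen. It was present in 41 of the 210 hosts (19.5%) and in 1104 of 27305 promoters of the table (4.04%). Among hosts with a member within 1000 bp of their start it was present in 9 of 23 (39.1%). The octamer ATTTGCAT (on both strands), a feature of snRNA-type promoters, was found in 2 hosts and in 1.80% of all promoters. The core motif of ZNF143 (both strands, any overlap with the octamer allowed) was found in 0 hosts and in 0.839% of all promoters. A match is only a description of these letters. To show this position, 80 bases are given for 6 noncoding hosts, 50 before the annotated start and 30 from it, 5′ to 3′, with the first 5 bases of the gene in capitals. ZFAS1, SNHG12, SNHG19 and SNHG32 hold the pattern, and SNHG1 and GAS5, whose clusters are described further on, do not at the annotated start. Other noncoding hosts that are not shown, such as SNHG29, SNHG8 and DANCR, lack it too, so the 6 do not give the share among hosts.
ZFAS1, chr20:49278592-49278671, plus strand: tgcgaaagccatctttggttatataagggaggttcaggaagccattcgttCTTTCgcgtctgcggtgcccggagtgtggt
SNHG12, chr1:28581844-28581923, minus strand: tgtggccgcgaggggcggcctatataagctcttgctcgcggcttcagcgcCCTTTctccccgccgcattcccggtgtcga
SNHG19, chr16:2155329-2155408, minus strand: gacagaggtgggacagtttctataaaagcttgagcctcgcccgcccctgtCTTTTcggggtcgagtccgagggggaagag
SNHG32, chr6:31834866-31834945, plus strand: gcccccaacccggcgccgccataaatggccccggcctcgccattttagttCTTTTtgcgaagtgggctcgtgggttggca
SNHG1, chr11:62855856-62855935, minus strand: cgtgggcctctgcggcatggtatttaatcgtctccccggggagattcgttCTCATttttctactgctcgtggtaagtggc
GAS5, chr1:173869016-173869095, minus strand: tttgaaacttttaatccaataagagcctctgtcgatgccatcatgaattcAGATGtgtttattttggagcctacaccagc

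Total counts in the windows were 1290223 to 2240951 in the ChIP libraries and 161719 to 359276 in the inputs. The labels do not say that replicates came from separate cultures, so p-values measure the spread between these libraries, which may be technical. Epithelial EPCAM, KRT8 and KRT18 were higher in ChIP than in input, while the intestinal genes KRT20, LGR5 and ASCL2 were lower. Of 7 markers of blood, stromal and endothelial cells, 5 were tested and 0 were higher. CDKN1A, the p53 target that encodes p21, had a log2 change of 1.39 under Nutlin3a (adjusted p = 0.109).

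Before the results, a split between libraries has to be stated. Both ChIP libraries numbered replicate 1 lay above all 4 numbered replicate 2 in 243 of 491 tested member windows (49.5%), compared with 17.0% of all tested windows. Nutlin3a replicate 1 was the shallowest ChIP library. ChIP over input is therefore also given from the replicate 2 libraries alone, a choice made after seeing the data. Among the 8 inputs, replicate number called 0 of 405 tested members, with 0.0240% of all windows called higher and 0.00% lower.

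SNORD3A and SNORD3B had the highest mean ChIP levels among the members. SNORD3A, a U3 gene (chr17:19187716-19188715), had 2846 CPM (counts scaled to library size, with TMM factors between libraries) in DMSO replicate 1 and 1015 in DMSO replicate 2. It had 3236 in Nutlin3a replicate 1, 1159 in Nutlin3a replicate 2, 995 in DMSO with peptide and 1111 in Nutlin3a with peptide. Its mean over the 8 inputs was 98.1 CPM, so all 6 ChIP libraries lay far above input and those of replicate 1 stood highest. It ranked 6 among all 28159 windows by mean ChIP level. SNORD3B-1 and SNORD3B-2 shared a single window (chr17:19061612-19062611) and so a single set of counts, with 2254 and 970 CPM in the DMSO pair and 2327 and 971 in the Nutlin3a pair. SNORD3D (chr17:19112337-19113336) had 1423 and 319 CPM in the DMSO pair and 1750 and 513 in the Nutlin3a pair, and SNORD3C (chr17:19189946-19190945) had 1085 and 236, then 1448 and 404. The 4 U3 windows therefore fell into a higher pair (SNORD3A, SNORD3B) and a lower pair (SNORD3D, SNORD3C) in each of the 6 ChIP libraries. These genes are near-identical copies, so reads can be split between them and their separate levels are uncertain.

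SNORD13, whose RNA guides acetylation of small-subunit ribosomal RNA, had 265 and 92.5 CPM in the DMSO pair and 386 and 82.8 in the Nutlin3a pair, beside an input mean of 22.0. Its window overlapped that of TTI2, so part of its reads may belong to that gene. SNORD118 (chr17:8173289-8174288), needed for processing of large-subunit ribosomal RNA, behaved unlike the others. It had 169 reads in DMSO replicate 1 and 284 in Nutlin3a replicate 1. In the 4 replicate 2 libraries it had 9 reads in DMSO, 9 in DMSO with peptide, 11 in Nutlin3a and 8 in Nutlin3a with peptide. That is 92.6 and 247 CPM in replicate 1 against 3.93 to 7.41 in replicate 2, with an input mean of 2.70 CPM from 5 reads. The groups numbered 1 and 2 did not overlap.

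**Figure D1:**
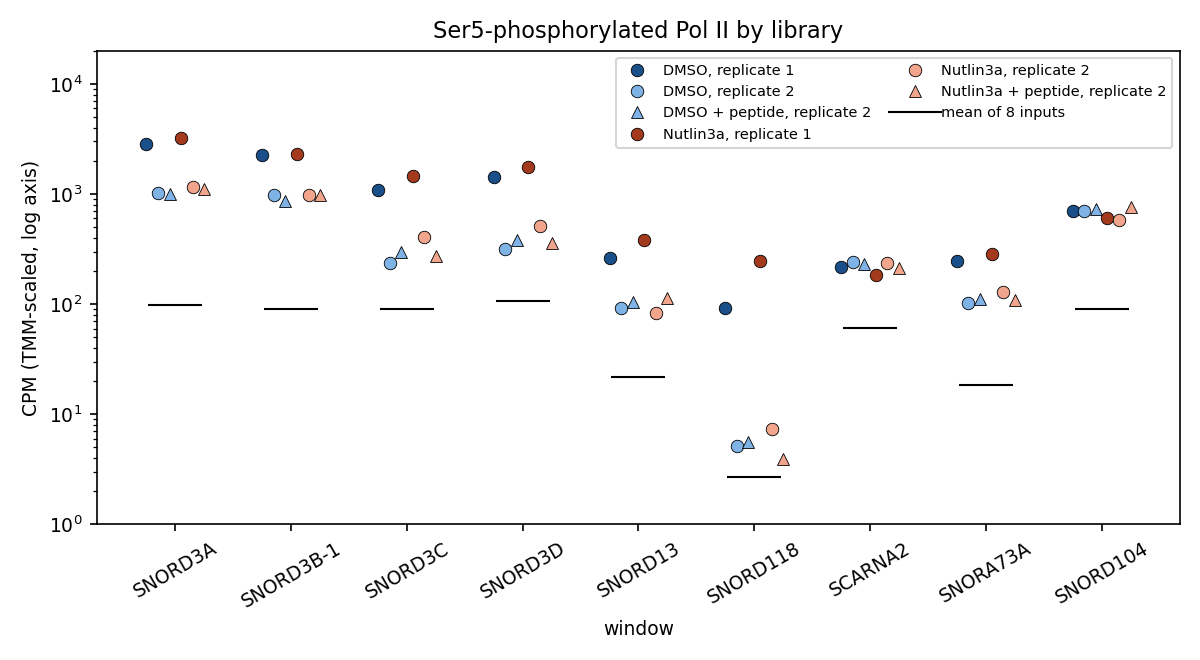
TMM-scaled CPM (log axis) of 6 own-promoter windows and 3 other members in the 6 ChIP libraries, each point a library and each dash the mean of the 8 inputs. SNORD118 stands at 92.6 and 247 CPM in replicate 1 and at 3.93 to 7.41 in replicate 2, while SCARNA2 and SNORD104 show no such split.

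In the edgeR quasi-likelihood test of ChIP over input, 119 of 421 tested members were higher (28.3%) and 25 were lower (5.94%), beside 22.5% higher and 14.0% lower among all 24290 tested windows. The log2 median was 0.14 over the members and -0.14 over all windows. The other 147 members did not reach a mean of 5 CPM and were not tested. Of the 421 tested, 4 had 0 reads in every input. They passed that filter through ChIP reads alone, so their direction was fixed in advance. Members that overlapped no other window gave 38 higher and 22 lower of 262, with a median of -0.34. With replicate 2 libraries alone 103 of 378 tested members were higher and 62 lower, beside 25.9% higher and 22.3% lower among all windows, and the member median was -0.03.

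All 6 distinct windows of the 7 own-promoter genes were higher in ChIP than in input, with a median log2 of 3.32. With the shared SNORD3B window counted for each of its genes the median was 3.79. The log2 value was 3.94 ± 0.25 (SE) for SNORD3A, 3.79 ± 0.24 for SNORD3B, 2.53 ± 0.28 for SNORD3D and 2.39 ± 0.29 for SNORD3C. It was 2.84 ± 0.36 for SNORD13 and 3.88 ± 1.28 for SNORD118, whose edgeR adjusted p was 0.0183. SNORD118 passed the filter only through its replicate 1 ChIP reads, so its higher direction was largely fixed in advance. With replicate 2 libraries alone the values were 3.51 for SNORD3A, 3.53 for SNORD3B, 2.12 for SNORD3D, 1.86 for SNORD3C and 2.00 for SNORD13, all still called. SNORD118 did not pass the filter there, where its summed ChIP over input ratio was 2.32 with an exact 95% counting interval from 0.910 to 7.56, and with the DMSO libraries alone its adjusted p was 0.141. SNORD3E to SNORD3K, 7 further copies, had 14 to 108 reads each over all 6 ChIP libraries. Of these only SNORD3J was tested, at -1.06 (adjusted p = 0.0830).

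The remaining classes differed in their medians. Their counts stand beside 22.5% higher and 14.0% lower among all windows, or 25.9% and 22.3% with replicate 2 alone. The 176 tested SNORD windows outside the imprinted clusters of chromosomes 14 and 15 had a median log2 of 0.97. Of these, 74 were higher (42.0%) and 4 lower (2.27%). Among the 176, 4 had 0 reads in every input and passed the filter through ChIP reads alone, so their direction was fixed in advance. In the replicate 2 libraries alone the median of this class was 0.49, with 62 of 158 higher (39.2%) and 17 lower (10.8%). The 71 tested SNORD windows inside those clusters, whose repeated copies (SNORD115, SNORD116, SNORD113, SNORD114) lie in long imprinted transcripts, had a median of -1.02. Of these, 0 were higher and 8 lower (11.3%), and with replicate 2 alone 20 of 65 were lower (30.8%). SNORD116-16 was the lowest at -3.28, from 19 ChIP and 17 input reads. Among 144 tested SNORA windows the median was 0.23, with 36 higher (25.0%) and 10 lower (6.94%). With replicate 2 alone it was 0.0037, with 33 of 129 higher (25.6%) and 20 lower (15.5%). Among 22 tested SCARNA windows the median was -0.36, with 2 higher (9.09%) and 3 lower (13.6%). The SNORA and SCARNA shares thus lay near or below those of all windows.

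SCARNA2 (chr1:109099893-109100892), a guide for U2 RNA that has no host gene here, was the SCARNA with the highest value. It had 217 and 244 CPM in the DMSO pair, 183 and 235 in the Nutlin3a pair, 233 in DMSO with peptide and 214 in Nutlin3a with peptide, against an input mean of 61.0. The 6 libraries lay close together, with replicate 1 below replicate 2 in both the DMSO and the Nutlin3a pair. The log2 ChIP over input was 1.87 ± 0.23 (edgeR adjusted p = 1.62e-07). SCARNA12, in PHB2, was the other one called, at 1.24. SCARNA17 stood at -0.27 ± 0.28 and did not pass. Its window is identical to that of SNHG22.

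**Figure D2:**
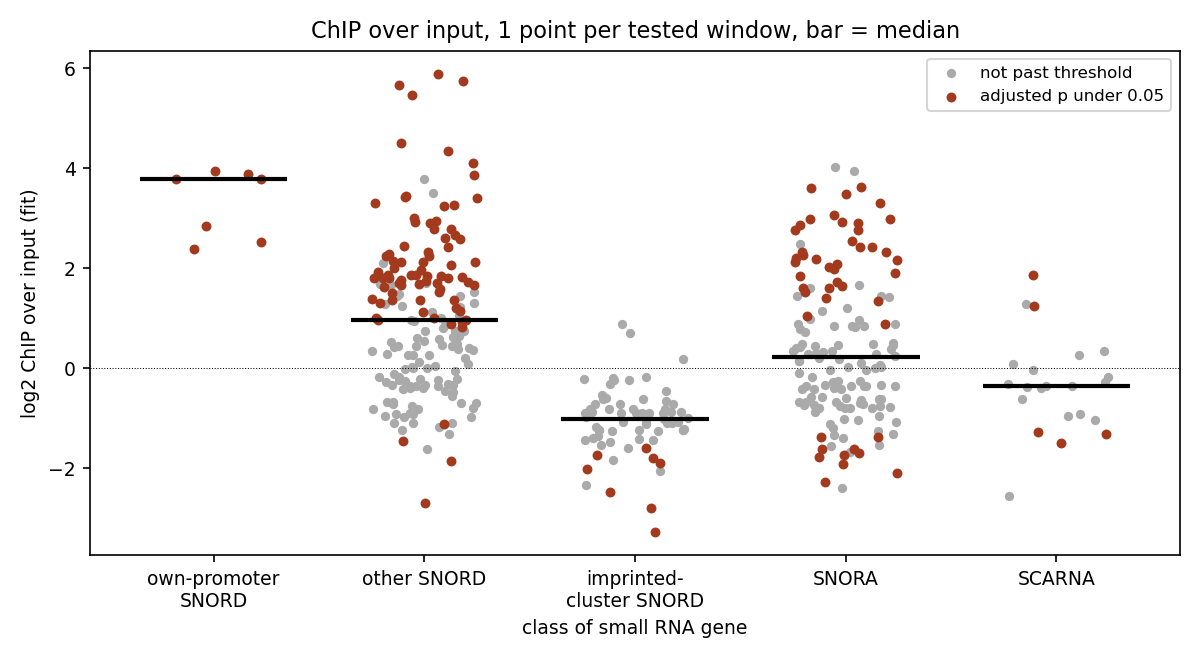
Fitted log2 ChIP over input (y axis) of each tested member window by class, with the class median as a bar and red points past an adjusted p of 0.05. The 7 own-promoter loci (the shared SNORD3B window drawn for each gene) have a median of 3.79, other SNORD 0.97, imprinted-cluster SNORD -1.02, SNORA 0.23 and SCARNA -0.36.

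ChIP over input was lower the farther a member lay from its host start. For members that started within 1000 bp of the host start, 33 were tested, the median log2 was 2.16, and 25 were higher and 0 lower. From 1000 to 5000 bp, 128 were tested, with a median of 1.46, 73 higher and 0 lower. Of these 128, 4 had 0 reads in every input, so their direction was fixed in advance. Beyond 5000 bp, 195 were tested, with a median of -0.58, 7 higher (3.59%) and 18 lower (9.23%). Among all windows 22.5% were higher and 14.0% lower. Of the 300 members in this bin, 64 lie in SNHG14 and 41 in MEG8, which hold imprinted-cluster SNORD. The tested imprinted-cluster windows had a median of -1.02, and the 68 tested SNORA windows in the bin one of -0.34. With replicate 2 alone the 3 medians were 2.21, 0.96 and -0.73. Beyond 5000 bp, 46 of 174 were then lower (26.4%), beside 22.3% of all windows. The same order of medians, over the tested members with a host, appeared in each of the 6 ChIP libraries. In Nutlin3a replicate 1 the bin medians were 2.27, 2.25 and 0.42, so the nearer bins lay close together. In DMSO replicate 2 the bin medians of log2 ChIP over input were 1.82, 0.81 and -0.23, and in DMSO replicate 1 they were 2.35, 1.84 and -0.24. Windows near a host start also hold reads of the host promoter: 14 members had that start inside their own window, and 9 of the 12 tested were higher. Depth in the input moved with position too, with median summed input counts of 61, 28 and 19 in the 3 bins, and its part in the result was not tested.

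**Figure D3:**
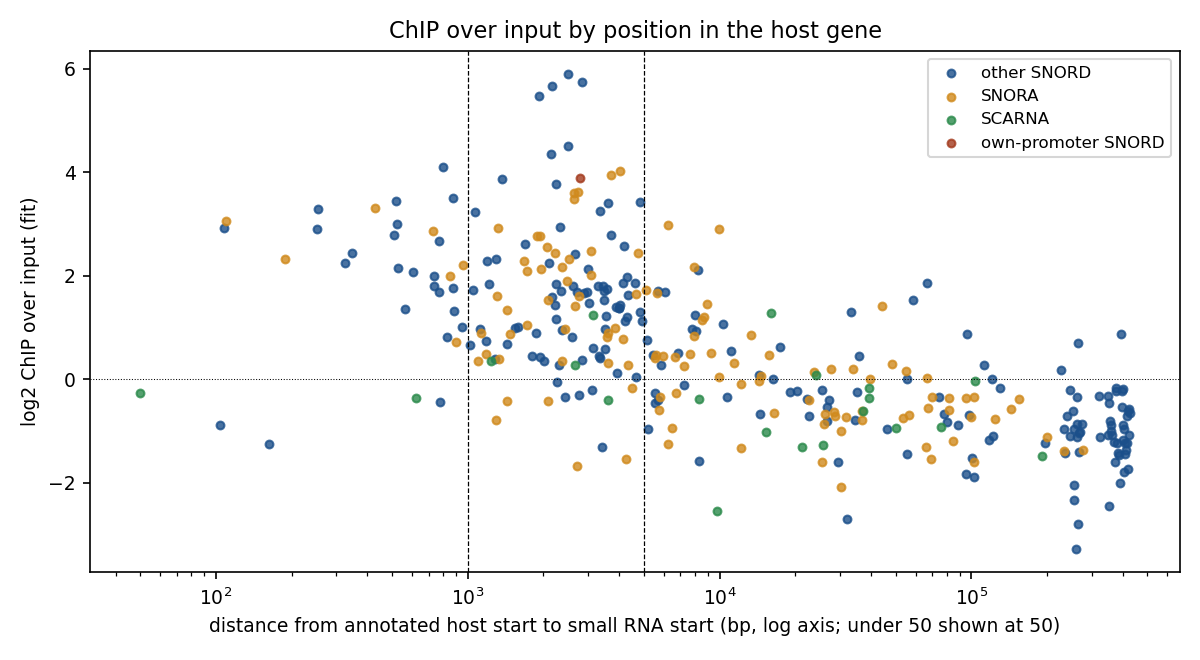
Fitted log2 ChIP over input (y axis) of tested members against the distance from the annotated host start to the small RNA start (log axis, bp), coloured by class, with dashed lines at 1000 and 5000 bp. Bin medians are 2.16, 1.46 and -0.58.

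Members close to a host start differed in how far their libraries spread. Of 33 tested within 1000 bp, 8 were higher in replicate 1 by the test given further on, and SNORD27 at 802 bp was one of them. Another pair, chosen after their values were seen, varied little. SNORD104 (chr17:64145778-64146777) lies 108 bp from the start of SNHG25 and had 697 and 704 CPM in the DMSO pair, 604 and 579 in the Nutlin3a pair, and 728 and 766 with peptide. Its log2 ChIP over input was 2.93 ± 0.22. SNORA57 (chr11:62665122-62666121), 110 bp from the CSKMT start, ranged from 323 to 464 CPM, with a log2 value of 3.06 ± 0.22. Both windows overlap those of their hosts. SNORA24, 428 bp inside SNHG8, had a log2 value of 3.30.

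SNORA73A and SNORA73B (U17), which act in cleavage of the ribosomal RNA precursor, lie in RCC1 at 1322 and 2515 bp from its start. SNORA73A had 245 and 102 CPM in the DMSO pair and 286 and 129 in the Nutlin3a pair, with a log2 ChIP over input of 2.93 ± 0.31. SNORA73B was at 2.32 ± 0.34. SNORA74A in MATR3 was at 1.65 ± 0.51. With replicate 2 alone the values were 2.36, 1.83 and 1.32, all still called. In these 3 windows both replicate 1 libraries again lay above all 4 of replicate 2.

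The highest fitted SNORD values came from SNHG1, a host on chromosome 11 with 8 box C/D members between 254 and 2850 bp from its start. SNORD25, the first of them, had 421 and 299 CPM in the DMSO pair and 350 and 279 in the Nutlin3a pair. SNORD27, at 802 bp, had 184 and 97.6, then 222 and 107. SNORD22, the last, had 36.1 and 1.71 CPM in the DMSO pair, 87.8 and 3.37 in the Nutlin3a pair, 1.24 in DMSO with peptide and 2.95 in Nutlin3a with peptide. Signal therefore fell along the gene, to a few reads in replicate 2 and to 36.1 and 87.8 CPM in replicate 1. All 8 were called higher than input, with a median of 4.79. With replicate 2 alone 4 passed the filter and 3 of them were called higher. SNORD29, SNORD30, SNORD31 and SNORD22 had 0 reads in all 8 inputs, so that their fitted values are no bound. They passed the filter through ChIP reads alone, so that their direction was fixed in advance. Against a floor of 3 reads summed over the 8 inputs they were at least 13.4-fold (SNORD22), 16.1-fold (SNORD31) and 16.3-fold (SNORD30) higher over all 6 ChIP libraries, with SNORD29 between SNORD22 and SNORD31. Over the replicate 2 ChIP libraries alone, the same floor gave at least 1.36-fold for SNORD29, 1.67-fold for SNORD30 and SNORD22, and 1.88-fold for SNORD31. With these 4 members at their bounds the median of the cluster was 3.82. Their windows overlap one another and share reads.

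GAS5, a noncoding host on chromosome 1 and itself a 5′ terminal oligopyrimidine transcript, held 10 listed SNORD members, of which 9 were tested and 9 called higher, with a median of 2.42. SNORD74, 1300 bp from the GAS5 start, had 307 and 260 CPM in the DMSO pair and 321 and 174 in the Nutlin3a pair. SNORD47 was the lowest at 1.86 and SNORD81 the highest at 3.43. With replicate 2 alone 8 were tested and 7 called higher, with a median of 2.05. SNORD44, at 3017 bp, was not tested against input, with 1 input read, and had 47.0 CPM in Nutlin3a replicate 1 and 1.35 to 5.48 CPM in the other 5 ChIP libraries.

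SNORD12 and SNORD12B of ZFAS1 had 93.1 and 83.2 CPM in DMSO replicate 1, then 2.85 and 6.28 in DMSO replicate 2. SNORD12 had 3 input reads, and the ratio of summed ChIP to summed input was 27.5, with an exact 95% counting interval from 9.34 to 134. Over the replicate 2 ChIP libraries alone it was 3.34, with an interval from 1.05 to 17.1. SNORA63 and SNORA4 of EIF4A2 had 1 input read each, and their adjusted p-values were 0.119 and 0.0981. These intervals cover counting error only. In all, 42 members (7.39%) had 0 reads in every input, compared with 2.78% of all windows.

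The split between replicate numbers was then tested, a comparison added after seeing the data. With condition in the model, 118 of 491 members were higher in replicate 1 and 0 lower, beside 2.63% higher and 0.649% lower among 25901 windows. The fit leaves 1 residual degree of freedom and takes its spread from all windows. DESeq2 called 36 members higher, with no share over all windows recorded. The 118 comprised 7 own-promoter genes, 73 SNORD outside the imprinted clusters, 1 inside them, 34 SNORA and 3 SCARNA. The 7 genes stand for 6 distinct windows, as SNORD3B was counted for both of its genes. The log2 difference was 4.65 ± 0.31 for SNORD118 (edgeR adjusted p = 5.86e-48), 1.99 ± 0.16 for SNORD3C and 1.94 ± 0.15 for SNORD3D. It was 1.83 ± 0.20 for SNORD13, 1.46 ± 0.13 for SNORD3A and 1.21 ± 0.13 for SNORD3B. SNORD12 reached 4.66 ± 0.34, SNORD22 4.52 ± 0.46 and SNORA4 4.25 ± 0.49, whereas SCARNA2 stood at -0.29 ± 0.18 and SCARNA17 at 0.12 ± 0.26.

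Host promoters did not show a split of that size. Over 296 members and their 192 hosts with values, the median log2 difference between replicates was 0.73 for members and 0.05 for host windows, and 241 of the 296 members exceeded their own host. Among them 93 members and 7 hosts were called higher in replicate 1. For members 1000 to 5000 bp from the host start the medians were 1.01 and 0.08, and for those within 1000 bp they were 0.28 and 0.16. SNHG1 itself was at 0.31 (adjusted p = 0.368), while SNORD22 at its far end was at 4.52. The labels give no difference in handling between replicate numbers, and a cause was not tested.

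**Figure D4:**
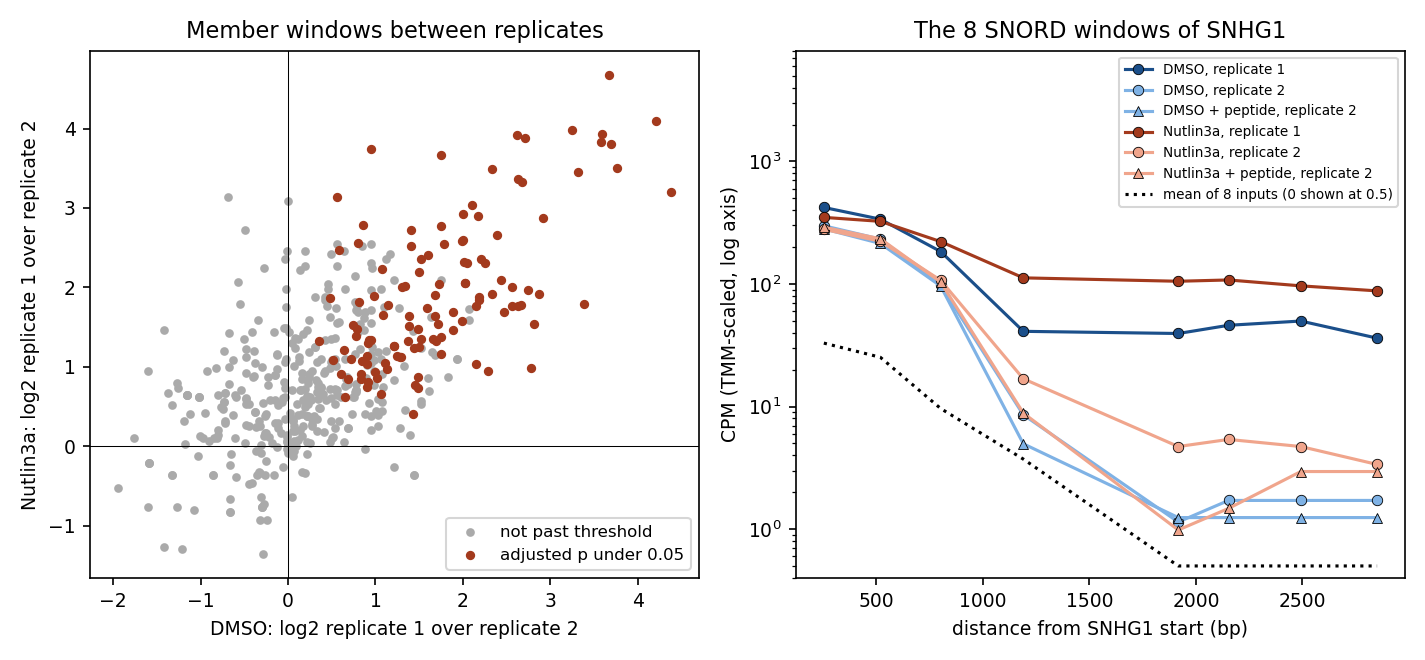
Left, log2 ratio of replicate 1 to replicate 2 for each of 491 members under DMSO (x axis) and Nutlin3a (y axis), red where the adjusted p is under 0.05. Right, TMM-scaled CPM (log axis) of the 8 SNHG1 windows by distance from the SNHG1 start (bp), a line per ChIP library and a dotted line for the input mean: SNORD22 stands at 36.1 and 87.8 CPM in replicate 1 and at 1.24 to 3.37 in replicate 2.

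Nutlin3a called no member window. In the edgeR test of Nutlin3a against DMSO without peptide, 0 of 491 members were higher and 0 lower, beside 0.00772% higher and 0.00% lower among all windows. At an unadjusted p under 0.05, 15 of 491 members were higher and 6 lower, beside 329 and 272 of 25901 windows. DESeq2 and limma-voom likewise called 0 members. The count turned on single libraries: 35 members were called higher without DMSO replicate 1, 6 higher without Nutlin3a replicate 2, and 4 lower without Nutlin3a replicate 1. With the replicate number as a block 4 were higher. Shares over all windows were not recorded for these settings, so these counts have no background beside them. The member median was 0.45 on the log2 scale, and the median over all windows 0.04. By replicate number the member median was 0.56 in replicate 1, with 408 of 491 above 0, and 0.11 in replicate 2, with 282 above 0. For members beyond 5000 bp from a host start it was 0.73 in replicate 1 and 0.05 in replicate 2, and for those within 1000 bp it was -0.04 and -0.10.

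The own-promoter loci had log2 changes under Nutlin3a of 0.18 ± 0.42 (SNORD3A), 0.02 ± 0.37 (SNORD3B), 0.37 ± 0.51 (SNORD3D), 0.48 ± 0.52 (SNORD3C), 0.37 ± 0.49 (SNORD13) and 1.34 ± 0.90 (SNORD118). None passed the threshold, and the difference between treatments was smaller than that between replicate numbers at each of these loci. SCARNA2 was at -0.15 ± 0.23. The smallest p-values among negative changes belonged to SNORD88B (-0.90 ± 0.24), SNORD88A (-0.73) and SNORD134 (-0.76). SNORD88B had 78.9 and 94.2 CPM in the DMSO pair and 43.5 and 49.8 in the Nutlin3a pair, and its edgeR adjusted p was 0.982. The smallest among positive changes belonged to SNORA41 (2.81 ± 0.99) and SNORD78 (2.12 ± 0.75). SNORD78 of GAS5 had 7.12 and 4.00 CPM in the DMSO pair and 44.3 and 6.06 in the Nutlin3a pair, so its change rested on Nutlin3a replicate 1.

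**Figure D5:**
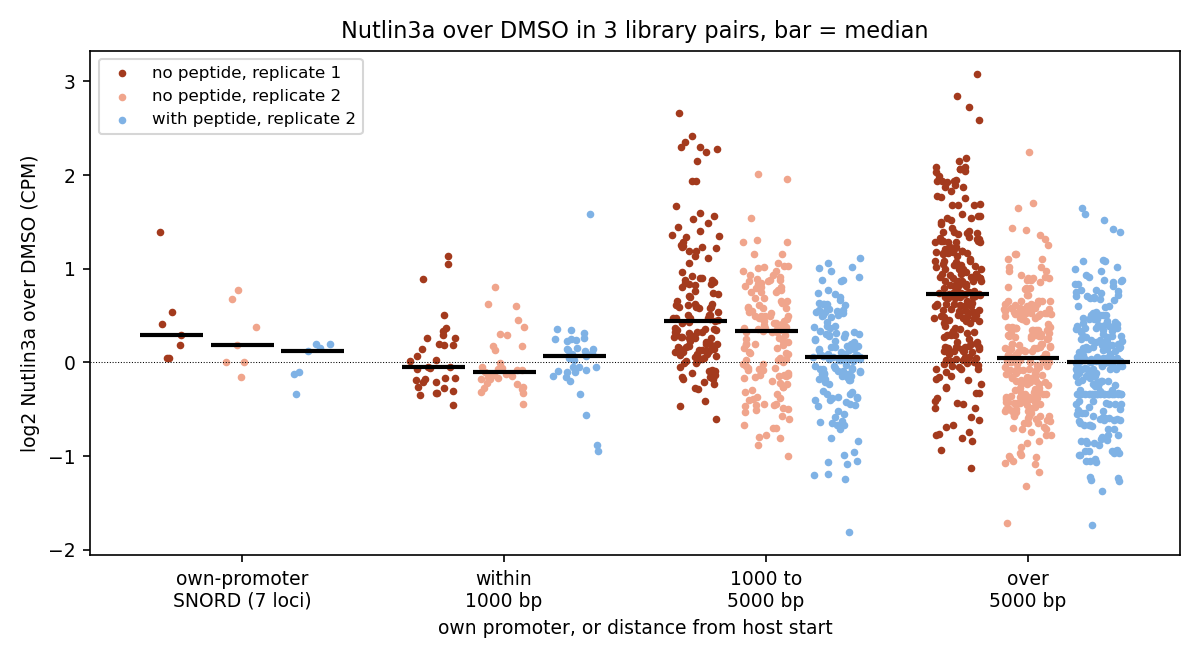
Log2 ratio of Nutlin3a to DMSO (y axis) per member in 3 library pairs, for own-promoter loci and by distance from the host start, with medians as bars. Beyond 5000 bp the median is 0.73 in replicate 1 and 0.05 in replicate 2 without peptide.

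With peptide, where 1 library stood against 1, the median log2 ratio of Nutlin3a to DMSO over the 491 members was 0.03, with 256 above 0. SNORD3A had 1111 CPM in Nutlin3a with peptide and 995 in DMSO with peptide, and SNORD118 had 3.93 and 5.58. The difference between the responses with and without peptide called 0 members in either direction (0.00% of all windows in each), and 0 by DESeq2 or limma-voom. At an unadjusted p under 0.05, 4 of 491 members were higher and 3 lower, beside 107 and 165 of 25901 windows. Without DMSO replicate 1, 14 were lower. No share over all windows was recorded with a library left out. The difference was -0.01 ± 0.73 for SNORD3A, -0.24 ± 0.86 for SNORD13 and -1.83 ± 2.63 for SNORD118.

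The peptide was also compared with no peptide under each treatment, and these comparisons share libraries with the previous ones. Under DMSO 0 members were called in either direction, and under Nutlin3a 0 likewise, with 0.00% of all windows called in each direction of both. At an unadjusted p under 0.05, 1 of 491 members was higher and 18 lower under DMSO, beside 178 and 215 of 25901 windows. Under Nutlin3a 5 members were higher and 84 lower, beside 146 and 486 windows. DESeq2 and limma-voom called 0 members. Under DMSO, 25 were lower without DMSO replicate 2 and 11 without Nutlin3a replicate 1. Under Nutlin3a, leaving out a DMSO library gave 34 lower (replicate 1) or 36 (replicate 2), and leaving out Nutlin3a replicate 2 gave 49. Scaling by the authors' constants gave 20 lower. For these alternatives no share over all windows was recorded. The member medians were -0.36 under DMSO and -0.80 under Nutlin3a. Both peptide libraries are replicate 2, while the libraries without peptide include replicate 1. Within replicate 2 the medians were -0.01 under DMSO and -0.09 under Nutlin3a.

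A list of 32 genes held those of 4 box C/D proteins, 4 box H/ACA proteins, 9 assembly factors, 5 transport or Cajal body factors and 10 factors of snRNA-type promoters. In ChIP over input 14 of the 32 were higher and 0 lower, with a median of 0.49, beside 22.5% higher and 14.0% lower among all windows. Under Nutlin3a 0 were called in either direction, beside 0.00772% and 0.00% of all windows. The 4 core box C/D proteins were all higher: the methyltransferase FBL at 0.95, NOP56 at 2.48, NOP58 at 1.35 and SNU13 at 1.04. Of the box H/ACA proteins only the pseudouridine synthase DKC1 was called, at 1.34, while NHP2, NOP10 and GAR1 had values from 0.03 to 0.16. Among factors of snRNA-type promoters SNAPC5 (2.77), ZNF143 (2.03), ICE2 (1.91) and SNAPC3 (0.89) were higher. Between replicate numbers 0 of the 32 were called in either direction, beside 2.63% and 0.649% of all windows.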

How the data were processed

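The authors deposited raw read counts in 1 window per gene and, per the file headers, a scaled signal per ChIP library that equals the counts times 1 constant. The constants were 0.595 to 0.748 in 5 libraries and 1.82 in Nutlin3a replicate 1, and their derivation is unknown here. The build is hg38, per the submitters' processing notes. Aligner and counter are not given in the sources used here. Windows were 1000 bp long. Matched to RefSeq gene positions, 9804 plus-strand and 9428 minus-strand windows of 28159 ran from 300 bp below to 700 bp above the gene's 5′ end in genomic coordinates on both strands, which the sources do not state, so that such minus-strand genes were covered mostly upstream. Strand was not stated for the counts. No member was in the promoter table, so motifs were searched in hosts only. All 568 members had a RefSeq entry, 543 windows lay at the annotated gene and 25 at another copy. In all, 191 overlapped another window, and 42 members had a window identical to that of another gene. The 568 members lay in 546 distinct windows, so member counts can hold the same reads more than once.

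Tests on the counts used edgeR 4.0.16 (R 4.3.3, glmQLFTest, legacy=TRUE, TMM, Benjamini-Hochberg over all windows, threshold 0.05) and the code was tested on simulated data. The 6 ChIP libraries were fitted as 4 group means after filterByExpr (minimum count 10, 25901 windows). The 14 libraries were fitted as 8 group means (mean CPM of at least 5, 24290 windows). The groups of 1 library were assumed to vary like the others. Log2 ratios between single libraries used CPM with a prior count of 2. Named members were those with own promoters and SCARNA2, SCARNA17, SNORA73A, SNORA73B and SNORA74A, the extremes of each class in ChIP over input, the 5 smallest p-values per direction elsewhere, and the GAS5 and SNHG1 clusters. SNORD104 and SNORA57, and hosts beside members, were chosen after their values were seen. Members, lists and tests were chosen with earlier results of these data known. Alternatives used DESeq2 1.42.0, limma 3.58.1, other scalings and filters, and left-out libraries. Apart from replicate 2 alone, their shares over all windows were not recorded, so member counts there have no background beside them.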

Additional observations from a re-analysis of the deposited data

How the results depend on the processing

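ChIP over input called 119 members higher and 25 lower. The higher count was 77 at a mean CPM of at least 20, 45 with the DMSO libraries without peptide, and 38 without overlapping windows. The lower count was 39 with total counts, 40 with DESeq2, 47 with limma-voom, 10 at a mean CPM of at least 20 and 3 with the DMSO libraries. It was 62 with only replicate 2 and 3 with only replicate 1, both chosen after seeing the data. Leaving out single libraries gave 96 to 127 higher and 12 to 28 lower, with the lowest lower counts without an input of Nutlin3a (12) and without the DMSO peptide ChIP (15). The class median for own-promoter SNORD, SNORD3J included, was 3.32. It was 2.12 with only replicate 2 and 4.53 with only replicate 1, and 2.72 to 3.56 with single libraries left out. The other SNORD median of 0.13 was 0.59 without a filter, 1.00 at a mean CPM of at least 20, -0.35 without overlaps, 0.98 with only replicate 1 and -0.10 with only replicate 2, and -0.10 to 0.60 with single libraries left out. The SNORA median of 0.23 was 0.67 at a mean CPM of at least 20, -0.25 without overlaps and 0.86 with only replicate 1, and 0.13 to 0.81 with single libraries left out. The SCARNA median was -0.40 to 0.24 with single libraries left out. SNORD116-16 reversed to 0.19 with only replicate 1. The causes of these changes were not tested.

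For Nutlin3a, leaving out single libraries gave 0 to 35 members higher, the most without DMSO replicate 1 and 6 without Nutlin3a replicate 2, and 0 to 4 lower. The difference between responses then gave 0 to 14 lower and 0 higher, the peptide under DMSO 0 to 25 lower and 0 higher, and the peptide under Nutlin3a 0 to 49 lower and 0 higher. The peptide under Nutlin3a gave 20 lower with the authors' constants. Same-numbered libraries deviated together, with r = 0.434 over 25901 windows and 0.649 over the 491 member windows, across windows that are not independent. The labels give no shared culture or day for a number. With the replicate block, 4 members were higher under Nutlin3a and 0 lower, and ChIP over input gave 131 higher and 22 lower. The replicate comparison gave 36 members higher with DESeq2, 66 at a mean count of at least 50 and 51 without overlaps, and 1 lower with total counts or a mean count of at least 50. It leaves no residual degree of freedom once a library without peptide is left out, so that was not run. The member median of Nutlin3a against DMSO with peptide, 0.04 when scaled over the ChIP libraries, was 0.37 with the authors' constants. Low input depth limits these values, with a median of 22.5 summed input reads per member against 57 over all windows.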
